A study of Mus musculus with 42 samples.

Results

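The transcription factors that set intestinal and secretory identity were followed through every group of the series. They are 10 genes: Atoh1, Gfi1 and Spdef of the secretory pathway, the goblet cell factors Klf4 and Creb3l1, the forkhead factors Foxa1, Foxa2 and Foxa3, and the caudal factors Cdx1 and Cdx2. They were chosen by name, and each has a row in all 12 tables, which hold 19237 gene rows in all and 12186 named genes in common. Dividing cells of the colonic crypt choose between an absorptive and a secretory fate. Notch signaling and its target Hes1 hold Atoh1 down in future absorptive cells. Atoh1, a basic helix-loop-helix factor, opens the secretory program, Gfi1 and Spdef act downstream of it, and Spdef with Klf4, Creb3l1 and the Foxa factors belongs to goblet cell maturation and mucin production. Cdx1 and Cdx2 are homeobox factors that keep the epithelium intestinal.

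Libraries came from 3 sources. Muc2-mCherry+ cells, which carry a goblet cell reporter, and Gli1-tdTomato+ cells, which are stromal cells labelled by the same driver that deletes the target genes, were sorted, and proximal and distal colon were kept apart. All of these mice carried Gli1-CreERT2, which is active in Gli1-expressing stroma, and all received tamoxifen for 5 days, with collection at day 30. Smad4 fl/fl was added in GS4M2 and GS4T mice and Alk3 fl/fl, a receptor gene that the files list as Bmpr1a, in GA3M2 and GA3T mice, while the GWTM2 and GWTT controls carried neither. The mice were 2 to 4 months old and of both sexes. Each of these 12 groups had 2 libraries, and the labels do not say how many mice made up a library. Wild-type organoids came from mouse distal colon, as the paper states, and grew in medium with EGF, Noggin (a BMP inhibitor), R-spondin1, Wnt3a and CHIR. They received 10 nM IL-1α and IL-1β, 10 nM IL-17A or neither for 12 h or 72 h. There were 3 libraries in each of 6 groups. Whether replicates came from separate mice or cultures is not stated, so the p-values measure the spread between these libraries.

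Depth was 15647603 to 20783127 reads in the 12 Muc2+ libraries, 14222902 to 23686940 in the 12 Gli1+ libraries and 14815170 to 17665812 in the 18 organoid libraries. The sorts matched their labels in the split of stroma from epithelium. In Gli1+ libraries 7 stromal markers summed to 41778 to 58130 CPM (reads scaled to one common library total), against at most 29.8 in Muc2+ libraries. The 9 epithelial markers summed to 12574 to 19700 in Muc2+ and to 24.8 to 2140 in Gli1+ libraries. Markers of other cells were present. In Muc2+ libraries 7 colonocyte markers summed to 4149 to 10884, beside 9466 to 62847 for 7 goblet cell markers. In Gli1+ libraries 9 macrophage markers summed to 194 to 2238. Among the targeted genes, Smad4 in GS4T cells was at 47.0% (proximal) and 53.1% (distal) of its control mean, and Bmpr1a in GA3T cells at 65.9% and 62.0%. Of the 42 labelled libraries 40 were distinct, since Control-12h replicates 2 and 4 held the same reads as Control-72h replicates 1 and 4, so 2 of the 3 organoid controls at each time were shared and 4 control libraries existed in all. Which time the shared libraries belong to is not known. A pair of libraries stood much closer together than the others in 3 organoid groups, replicates 3 and 4 of IL1-12h, 3 and 4 of IL17A-12h and 2 and 4 of Control-72h, with a chi-square per degree of freedom of 3.03, 3.32 and 3.30 against 26.2 to 212 for the other pairs within organoid groups. They differed by more than counting noise and were kept as separate libraries, with an alternative that averages them. The proximal table of GS4M2 and GWTM2 cells was read by its deposited column names. A supplementary table of the study has these headings the other way round, which would change the sign of each proximal GS4M2 difference. The columns headed GWTM2 in the deposited table hold the same reads, over 13681 genes, as the GWTM2 columns of the proximal GA3M2 table. Reads of Xist and of Y-linked genes marked 2 of 12 Muc2+ libraries (GWTM2 replicate 1 of each segment, with both proximal GS4M2 libraries male) and 9 of 12 Gli1+ libraries (all 4 of GS4T) as female. Of the 18 organoid libraries 8 were female, among them at 72 h 2 of 3 controls, 1 of 3 with IL-1 and 0 of 3 with IL-17A. The part of sex in the differences was not tested.

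The sequences just upstream of 3 members are shown because these 3 are the members that differed between colon segments. They are the 250 bases before the RefSeq start on GRCm38.p6, given 5′ to 3′ on the minus strand, at chr17:27728952-27729201 for Spdef, chr5:147307250-147307499 for Cdx2 and chr2:148046970-148047219 for the most upstream of 3 listed starts of Foxa2. Capitals mark matches on either strand to a forkhead motif (TGTTTAC or TATTTAC), a caudal motif (TTTATG) or an E-box (CAGCTG or CAGATG).
Spdef: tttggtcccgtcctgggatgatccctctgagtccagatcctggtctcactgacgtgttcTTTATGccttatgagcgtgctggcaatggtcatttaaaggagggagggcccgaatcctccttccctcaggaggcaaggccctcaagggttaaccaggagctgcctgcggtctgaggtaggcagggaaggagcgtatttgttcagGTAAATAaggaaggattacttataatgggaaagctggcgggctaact
Cdx2: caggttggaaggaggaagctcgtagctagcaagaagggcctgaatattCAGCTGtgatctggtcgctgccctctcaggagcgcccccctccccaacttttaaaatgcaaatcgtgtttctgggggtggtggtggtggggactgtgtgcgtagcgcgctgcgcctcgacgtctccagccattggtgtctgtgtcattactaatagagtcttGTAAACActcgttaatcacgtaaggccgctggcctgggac
Foxa2: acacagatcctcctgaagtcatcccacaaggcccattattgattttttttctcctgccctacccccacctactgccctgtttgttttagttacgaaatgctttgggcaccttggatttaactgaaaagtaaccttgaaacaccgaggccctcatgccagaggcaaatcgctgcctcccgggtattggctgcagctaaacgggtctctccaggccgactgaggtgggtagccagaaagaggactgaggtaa

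Spdef held the forkhead letters at -47 and the caudal letters at -191 from the start, and Cdx2 held forkhead letters at -40 and an E-box at -202. The first Foxa2 window held none of the 3 motifs. Of the 8 members with a promoter window shown or searched (250 bases before to 50 after a start), Foxa1 held forkhead letters at -141 and Klf4 an E-box at -247, and no window of Atoh1, Foxa2, Foxa3 or Gfi1 held any of them. No match overlapped another. In the 32851 promoter windows of the table, 6.545% held the forkhead letters, 11.85% the caudal letters and 30.57% an E-box. A match is only a match of letters, and binding was not measured. Atoh1 is a single-exon gene (chromosome 6, 64729125 to 64731245), and the primers of the study's qPCR for it, named Math1 there, lie in its 3′ untranslated part at 64730702 to 64730800: gttgcgctcactcacaaataag and acacaatagtccgtgttcagtaa.

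Levels in control libraries were first set side by side as CPM per kb of exon, over the genes common to all tables and 4 distinct libraries per source. In Muc2+ cells the 6 most abundant members formed one overlapping series. Cdx1 was at 283 ± 24.1 (SD, n = 4), Creb3l1 at 276 ± 31.5, Klf4 at 217 ± 58.8, Spdef at 163 ± 45.3, Atoh1 at 149 ± 18.5 and Cdx2 at 115 ± 29.9. Neighbours in this order overlapped in their 4 libraries. Foxa1 (59.6 ± 5.79) and Foxa3 (55.5 ± 9.56) lay below all 6 without overlap, and Foxa2 (23.5 ± 10.4) and Gfi1 (16.6 ± 2.83) were lowest.

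Whole organoids held 4 of the members at 72.9% to 84.4% of the Muc2+ mean over both segments and the other 6 at 46.6% or less. The organoids are distal, so for members that differ between segments these percentages depend on the mixed reference. Foxa2 was at 31.9 CPM per kb in distal and 15.0 in proximal GWTM2 cells, against 19.8 in organoids. Cdx2 was at 88.6 and 140, against 83.5, and Spdef at 139 and 188, against 32.4. Relative to the Muc2+ mean, Foxa2 stood at 84.4%, Foxa1 at 81.8%, Cdx1 at 78.2% and Cdx2 at 72.9%, whereas Foxa3 stood at 46.6%, Creb3l1 at 36.8%, Klf4 at 36.3%, Spdef at 19.8%, Atoh1 at 11.6% and Gfi1 at 11.3%. In these bulk libraries fewer goblet cells and less RNA per cell cannot be told apart. Cdx1 was again highest (221 ± 5.36 CPM per kb), above Creb3l1 (101 ± 15.9) in every library, and Gfi1 lowest (1.87 ± 0.501). Cdx2 varied most, from 48.6 to 159.

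In Gli1+ control cells 8 of the 10 members were close to absent and Klf4 was not. Klf4 was at 232 ± 46.2 CPM per kb (SD, n = 4), which is 107% of its mean in goblet cells, and Creb3l1 at 32.6 ± 16.8, or 11.8%. The other 8 had means of at most 3.24, or 0.249% to 5.79% of the goblet cell level, and their ranges overlapped from each to the next.

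**Figure D1:**
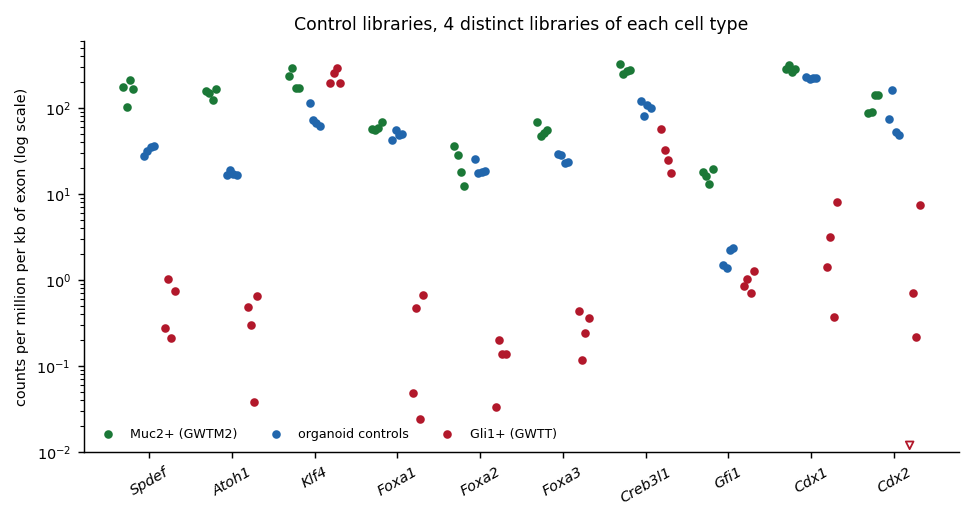
Level of each transcription factor gene in the 4 distinct control libraries of each source, in CPM per kb of exon on a log scale; each point is a library and the open triangle at the lower edge is a library at 0. Green points are Muc2+ goblet cells, blue points organoids and red points Gli1+ stromal cells, in which only Klf4 and Creb3l1 lie above 10.

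Proximal and distal colon were compared in Muc2+ cells over all 12 libraries, in 1 limma fit of log2(CPM + 0.1) with genotype as a term, a comparison chosen after seeing the data. Of 13062 genes tested 14.1% passed an adjusted p of 0.05, and 3 of the 10 members did. Cdx2 and Spdef were higher in the proximal colon and Foxa2 in the distal colon. Cdx2, the main factor of intestinal identity, was at 316, 312, 325, 364, 331 and 399 CPM in the proximal GWTM2, GS4M2 and GA3M2 libraries (2 of each, in that order), and at 195, 201, 174, 165, 205 and 202 in the distal ones. Each proximal library lay above each distal one, with a log2 difference of 0.84 ± 0.08 (SE, adjusted p = 4.55e-05). The proximal to distal ratio was 1.59 in controls, 2.04 in GS4M2 cells and 1.79 in GA3M2 cells.

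Spdef, the goblet cell maturation factor, ranged from 378 to 837 CPM (median 569) in 6 proximal libraries and from 231 to 595 (median 363) in 6 distal ones. The segments overlapped, but each of the 6 proximal libraries lay above the distal library of the same genotype and number, and the log2 difference was 0.63 ± 0.16 (adjusted p = 0.0234). The call was lost, at an adjusted p of 0.0502 to 0.0616, without GWTM2-Proximal replicate 1, GWTM2-Distal replicate 2, GA3M2-Proximal replicate 1, GA3M2-Distal replicate 2 or any one of the 4 GS4M2 libraries. Foxa2 ran the other way, at 28.7 to 69.2 CPM (median 46.8) in the proximal and 63.6 to 83.3 (median 71.9) in the distal colon, with a log2 difference of -0.69 ± 0.17 (adjusted p = 0.0184).

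Within each genotype, libraries of both segments with the same number deviated together, with correlations of 0.55 (GWTM2), 0.43 (GS4M2) and 0.24 (GA3M2). With 2 libraries a group each correlation is a single value and cannot show a pairing, which the labels do not give. Distal GA3M2 and GWTM2 libraries of the same number, which come from different mice, reached 0.34. With the number as a block 5 members and 17.3% of genes passed, Klf4 (-0.47, adjusted p = 0.015) and Foxa1 (0.29, adjusted p = 0.0337) beside the 3 above. Without the block their adjusted p were 0.0863 and 0.078. Klf4, which marks maturing goblet cells, had a higher group mean in the distal colon in all 3 genotypes. Its proximal to distal ratio was 0.648 in controls, 0.657 in GS4M2 and 0.905 in GA3M2 cells. The libraries overlapped, at 519 to 880 CPM distally and 291 to 667 proximally. Cdx1 had a log2 difference of -0.28 ± 0.09 (adjusted p = 0.0501), opposite in sign to its relative Cdx2, and passed without GA3M2-Proximal replicate 2, GA3M2-Distal replicate 2 or GWTM2-Distal replicate 1 (adjusted p = 0.0281 to 0.0403). Atoh1, Gfi1, Foxa3 and Creb3l1 had log2 differences between -0.09 and 0.25 (adjusted p of 0.257 to 1). Among goblet cell products 5 of 12 were lower in the proximal colon, among them Clca1 (-1.65), Fcgbp (-1.43) and Zg16 (-1.11), and Isx, a homeobox gene of the epithelium, was higher by 1.87. Markers of other epithelial cells moved in the same comparison. The enteroendocrine markers Chga (1.83) and Chgb (1.68) and the colonocyte marker Car1 (3.09) were higher in the proximal colon, and the colonocyte marker Aqp8 (-2.22) and the cell division genes Mki67 (-0.96) and Top2a (-0.74) were lower. The part of other cells in the segment differences was not tested.

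In control mice alone, with 2 libraries a segment and 5 members (44.7% of genes) without overlap, limma called 0 members (3 at an unadjusted p under 0.05, where 12.6% of genes passed, 0 by edgeR, 3 by DESeq2), against 0.248% of 13303 genes. The values ran the same way, with log2 differences of 0.67 ± 0.10 for Cdx2 (adjusted p = 0.106), -1.10 ± 0.23 for Foxa2 (0.167) and -0.62 ± 0.15 for Klf4 (0.214). With the number as a block all 3 passed (adjusted p = 0.0106, 0.00359 and 0.0271), as did 6.99% of genes. In Gli1+ cells over 3 genotypes limma called 0 members, against 0.612% of genes (2 at an unadjusted p, where 12.6% of genes passed, 0 by edgeR and by DESeq2). In GWTT cells alone limma called 0 of 8 members tested, Foxa2 and Foxa3 being below the filter, against 3.62% of genes (1 at an unadjusted p, where 17% of genes passed, 0 by edgeR, 1 by DESeq2). Segments failed to overlap in 1 member and in 48.4% of genes. Creb3l1 there was at 48.3 and 34.4 CPM in the proximal and 109 and 63.4 in the distal colon. The log2 difference was -1.03 ± 0.29 (adjusted p = 0.14, and 0.00703 with the block). By Xist and Y-linked reads GWTT replicate 1 was male proximally and female distally, so its number does not join segments of 1 mouse.

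**Figure D2:**
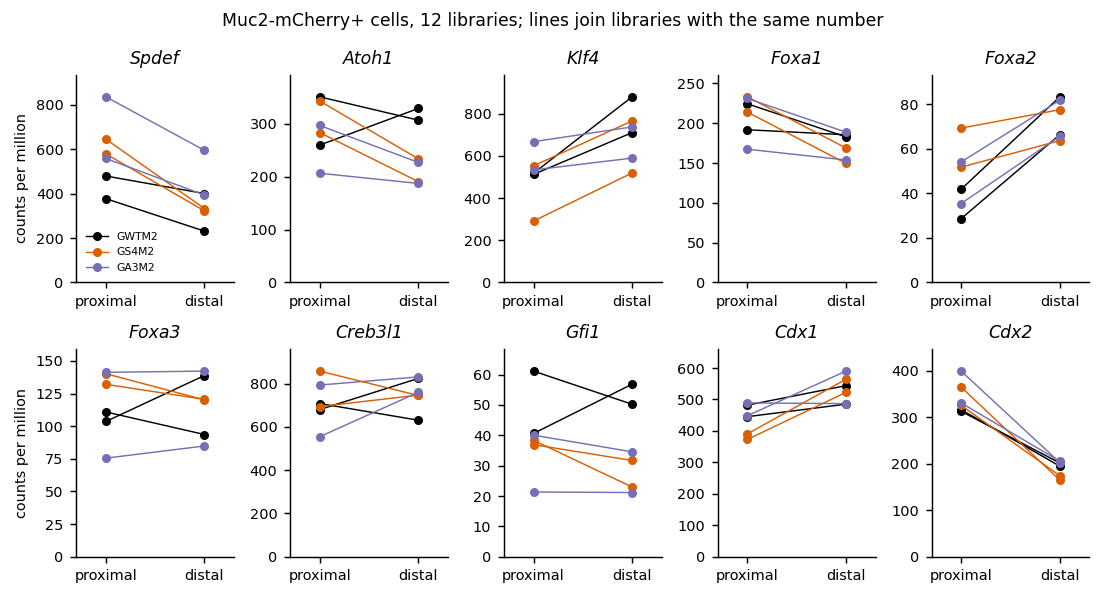
CPM of each member in the 12 Muc2+ libraries by colon segment, with lines joining libraries of 1 genotype and number (black GWTM2, orange GS4M2, purple GA3M2). Cdx2 falls from proximal (312 to 399) to distal (165 to 205) on all 6 lines, Spdef falls on all 6, and Foxa2 rises on all 6.

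Deletion of Smad4 or Alk3 in the stroma was compared with control in Muc2+ cells, which are not the cells that the Gli1 driver targets. Bmpr1a in these cells was at 71.0% (proximal) and 80.5% (distal) of its control mean in GA3M2, and at 79.1% and 80.0% in GS4M2. Smad4 was at 140% and 136% in GA3M2, and at 101% and 93.6% in GS4M2. Whether any Muc2+ cells lost the genes was not tested. None of the 10 members passed limma in any of the 4 comparisons. The share of all genes called was 0.325% in proximal and 0% in distal GS4M2 cells, and 0.0899% and 0% in GA3M2 cells. At an unadjusted p under 0.05 the counts of members were 4, 4, 1 and 2 in the same order, where 16.7%, 10.6%, 15.3% and 11.7% of genes passed, edgeR called 0 in each, and DESeq2 called 1 (Foxa2), 2 (Atoh1 and Gfi1), 0 and 1 (Atoh1). Knockout and control libraries did not overlap in 5, 4, 4 and 2 members, but neither did they in 50.2%, 45.7%, 52.1% and 44.2% of all genes, so a lack of overlap between 2 and 2 libraries is common here. Both comparisons of a segment share the same 2 control libraries.

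Gfi1, a zinc finger repressor under Atoh1, had the most negative log2 difference of the 10 members in all 4 comparisons. In normalized counts it was 690.1 and 1046 in proximal controls and 606.5 and 647.3 in GS4M2 cells, and 1005 and 907.8 in distal controls against 533.1 and 399.9. Neither pair of groups overlapped, with log2 differences of -0.44 ± 0.20 (adjusted p = 0.347) and -1.05 ± 0.18 (adjusted p = 0.37). In GA3M2 cells Gfi1 was 729.7 and 407.7 against 734.8 and 1106 in the proximal colon, and 593.1 and 345.1 against 961.9 and 876.3 in the distal colon, again without overlap, with log2 differences of -0.72 ± 0.34 and -1.02 ± 0.28 (adjusted p = 0.361 and 0.334). Without GWTM2-Distal replicate 2, which leaves 1 control library, the distal GA3M2 value was -1.09. A fit of both segments with segment as a term, chosen after seeing the data, gave -0.74 ± 0.18 for GS4M2 (adjusted p = 0.0918) and -0.87 ± 0.24 for GA3M2 (adjusted p = 0.0593). In these fits 1.25% and 7.19% of genes and 0 members passed limma (1 and 3 at an unadjusted p, as did 19.6% and 28.2% of genes, 0 and 0 by edgeR, 1 and 2 by DESeq2). Libraries of both segments with 1 number may come from 1 mouse, which would make these p-values too small. Without GWTM2-Proximal replicate 1 the GS4M2 value was -0.92 (adjusted p = 0.0441), and without GA3M2-Proximal replicate 1 the GA3M2 value was -1.07 (adjusted p = 0.0345). Gfi1 overlaps the antisense gene A430072P03Rik, and whether reads were counted by strand is not given in the sources used here.

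Atoh1 differed from Gfi1 in the proximal colon, where GS4M2 cells (5634 and 4781 normalized counts) lay within the controls (4413 and 6003). In the distal colon Atoh1 was 3930 and 3319 in GS4M2 cells against 5817 and 5545, and 3893 and 3053 in GA3M2 cells against 5565 and 5353. Both knockouts lay below their controls without overlap, with log2 differences of -0.65 ± 0.13 and -0.66 ± 0.17 (adjusted p = 0.37 and 0.32). The difference of the GS4M2 value between segments was 0.67 ± 0.24 (adjusted p = 0.565). Tested as an interaction, it was called for 0 members in either knockout (3 and 0 at an unadjusted p, where 8.67% and 1.4% of genes passed, 0 by edgeR and by DESeq2), against 0% of genes in both.

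Spdef lay above its control mean in GA3M2 cells. It was 15244 and 10677 normalized counts in the proximal colon against 8678 and 6829, and 10213 and 6422 in the distal colon against 6778 and 4034. The proximal groups did not overlap and the distal ones did, with log2 differences of 0.73 ± 0.26 and 0.63 ± 0.33 (adjusted p = 0.287 and 0.522). Over both segments it was 0.68 ± 0.22 (adjusted p = 0.0865). Without GWTM2-Distal replicate 1, which leaves 1 distal control library, the distal GA3M2 value of Spdef was 1.01. Over both segments Spdef was then called higher in GA3M2 (0.84, adjusted p = 0.0421) and GS4M2 cells (0.46, adjusted p = 0.0325). In GS4M2 cells the log2 difference of Spdef was 0.49 ± 0.14 proximally (adjusted p = 0.192) and 0.04 ± 0.26 distally (adjusted p = 0.961).

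The forkhead, caudal and remaining goblet cell members did not pass either. Foxa2 in proximal GS4M2 cells was 1137 and 873.2 normalized counts against 710.7 and 490.1, without overlap, a log2 difference of 0.75 ± 0.21 (adjusted p = 0.181). Foxa1, Foxa3, Creb3l1, Cdx1 and Cdx2 had log2 differences between -0.31 and 0.31 in all 4 comparisons. Klf4 lay between -0.39 and 0.26, with its widest spread in proximal GS4M2 cells (4779 and 9330). Compared directly, GS4M2 and GA3M2 cells gave 0 called members in either segment by limma, edgeR and DESeq2 (0 and 2 at an unadjusted p, where 15.6% and 18.3% of genes passed), against 0.233% and 2.09% of genes. Without GA3M2-Proximal replicate 1, which leaves 1 library in that group, Atoh1 (0.59), Foxa2 (0.76), Foxa3 (0.85) and Gfi1 (0.82) were called higher in proximal GS4M2 cells (adjusted p = 0.00505 to 0.0303), where 27.7% of genes passed. Without GA3M2-Distal replicate 2, which leaves 1 library in that group, the log2 difference of Spdef was -0.86 in distal GS4M2 cells.

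Goblet cell products, by contrast, included called genes. In GA3M2 cells over both segments 5 of 12 product genes were called lower, among them Clca1 (-4.33 ± 0.52, adjusted p = 0.00796), Muc2 itself (-2.94 ± 0.37, adjusted p = 0.00945) and Fcgbp (-1.66 ± 0.36, adjusted p = 0.0338), and 0 were called in GS4M2 cells. Macrophage markers moved in the same samples: 2 of 6 tested were called higher in GA3M2 cells, Lyz2 by 7.90, and the 9 markers summed to 111 to 129 CPM against 42.2 to 150 in GWTM2 cells. Both stromal markers tested were called higher as well, with a sum over 7 markers of 2.64 to 29.8 against 0.875 to 2.71. The 7 goblet cell markers summed to 9466 to 23850 in GA3M2 and to 30401 to 62847 in GWTM2 cells. The part of other cells in these results was not tested. Of the other intestinal transcription factors, 28 in the list and 22 tested, 2 rose and 1 fell in GS4M2 cells and 1 rose and 2 fell in GA3M2 cells. Bhlha15 (Mist1), a factor of secretory cell structure, was higher in GS4M2 cells by 2.87 ± 0.31 (adjusted p = 0.0163). Prdm1 (Blimp1), a repressor of epithelial maturation genes, was higher in both knockouts, by 2.09 and 2.47 (adjusted p = 0.0274 and 0.0287). Hnf4g was lower in both, by -0.59 and -0.67 (adjusted p = 0.036 and 0.0225).

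**Figure D3:**
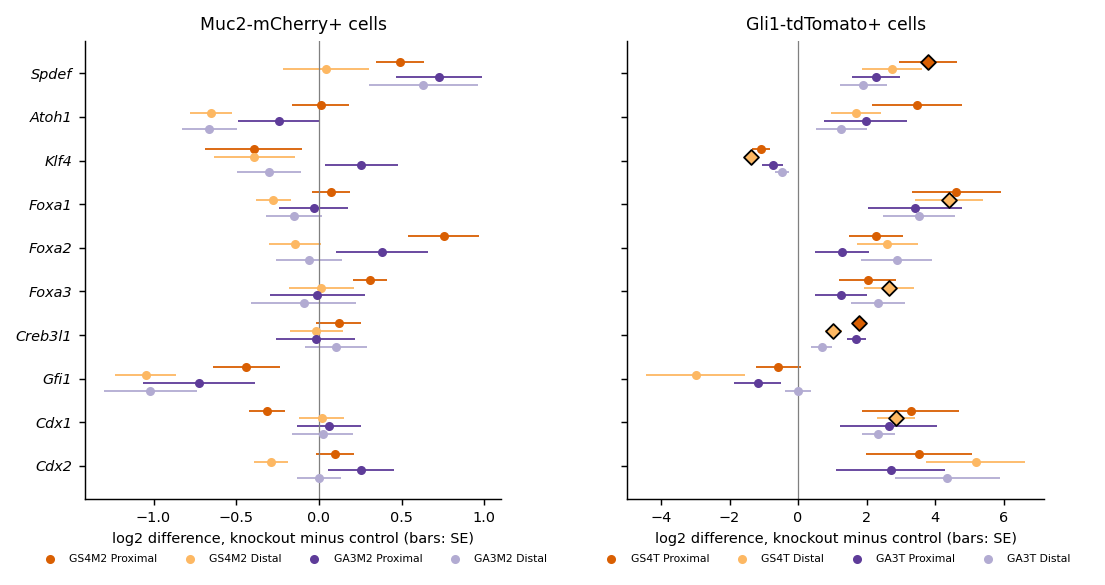
Log2 difference of each member between knockout and control, in Muc2+ cells (left) and Gli1+ cells (right), with SE bars, 2 libraries a group; diamonds with a black edge mark an adjusted p under 0.05. On the left no member is marked and Gfi1 lies below 0 in all 4 comparisons; on the right Klf4 lies below 0 and all members other than Klf4 and Gfi1 above 0, on a wider axis.

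In Gli1+ stromal cells, where the genes are deleted, Klf4 fell and Creb3l1 rose after loss of Smad4. Epithelial markers were higher in the same GS4T libraries, and what part epithelial RNA has in the rise of Creb3l1 was not tested. Klf4 was 7232 and 9454 normalized counts in distal controls and 2665 and 3867 in GS4T cells, a log2 difference of -1.36 ± 0.22 (adjusted p = 0.0105, and 0.056 without GWTT-Distal replicate 2). In the proximal colon it was 11187 and 7451 against 3610 and 5217, a difference of -1.07 ± 0.27 (adjusted p = 0.0548). No GS4T library reached its controls in either segment. Creb3l1 was 816 and 570 in proximal controls and 2396 and 2272 in GS4T cells (1.77 ± 0.19, adjusted p = 0.00882), and 1787 and 1030 in distal controls against 2670 and 2868 (1.03 ± 0.25, adjusted p = 0.0365). The call for Creb3l1 was lost without either proximal GS4T library (adjusted p = 0.0858 and 0.0656). Distally it was lost without either GS4T library or GWTT-Distal replicate 2 (adjusted p = 0.09 to 0.12).

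The members called were Spdef and Creb3l1 in proximal GS4T cells, where 15.6% of 15319 genes passed limma, and Klf4, Foxa1, Foxa3, Creb3l1 and Cdx1 in distal GS4T cells, where 23.2% of 15262 genes did. Without GWTT-Proximal replicate 2, 7 members and 19.5% of genes were called in the proximal colon. In the distal colon the call for Foxa3 was lost without any one of the 4 libraries (adjusted p = 0.0539 to 0.163), for Foxa1 without any but GWTT-Distal replicate 2 (adjusted p = 0.0553 to 0.109), and for Cdx1 without GS4T-Distal replicate 2 or GWTT-Distal replicate 1 (adjusted p = 0.0597 and 0.0698). At an unadjusted p 6 and 8 members passed, and 34.2% and 38.2% of genes. Groups did not overlap in 9 and 10 members, and in 65.4% and 67.5% of genes. Over both segments, a fit chosen after seeing the data, 9 of 10 members passed (all but Gfi1) and 38.9% of genes did. Leaving out 1 library at a time, 6 to 9 members and 29.3% to 35.4% of genes passed, and Atoh1, Cdx1 and Cdx2 were the ones lost, Atoh1 in 6 cases. Klf4 was lower by -1.22 ± 0.20 (adjusted p = 0.00241) and Creb3l1 higher by 1.40 ± 0.22 (adjusted p = 0.00213). The difference between segments was called for 0 members in GS4T and in GA3T cells (0 at an unadjusted p, where 10.1% and 6.84% of genes passed, 0 by edgeR and by DESeq2), against 0.189% and 0% of genes.

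In GA3T cells limma called 0 members in either segment (2 and 6 at an unadjusted p, where 21.6% and 18.7% of genes passed, 0 and 0 by edgeR, 1 and 2 by DESeq2), against 0.358% and 0% of genes. Groups did not overlap in 8 and 9 members, and in 56.4% and 54.3% of genes. Foxa2 in proximal GA3T cells was below the filter on low values, so 9 members were tested there. Klf4 had log2 differences of -0.75 ± 0.31 and -0.47 ± 0.21, and Creb3l1 of 1.70 ± 0.27 and 0.69 ± 0.30 (adjusted p = 0.247, 0.315, 0.0753 and 0.298). Over both segments, where 12.9% of genes passed, Spdef (2.08 ± 0.50), Foxa1 (3.47 ± 0.93) and Creb3l1 (1.20 ± 0.28) were called higher (adjusted p = 0.0362, 0.0474 and 0.034). Each of these calls was lost without 1 or another of at least 6 of the 8 libraries.

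The 7 members that are close to absent in stroma, other than Gfi1, moved with the epithelial markers. All 9 epithelial markers were called higher in distal GS4T cells and over both segments, and their sum was 24.8 to 697 CPM in GWTT libraries, 927 to 2140 in GS4T and 565 to 1391 in GA3T. In proximal GS4T cells Krt18 alone of these markers was called (5.36 ± 1.18, adjusted p = 0.0423). Macrophage markers moved as well, with 7 of 9 called higher in proximal and 5 of 9 in distal GS4T cells. Spdef reached 92.2 and 337 normalized counts in proximal GS4T cells against 6.20 and 21.5 (3.80 ± 0.85, adjusted p = 0.0439), a call lost without either GS4T library (adjusted p = 0.112 and 0.209) or GWTT-Proximal replicate 1 (adjusted p = 0.0533). Foxa1 reached 99.2 and 265 in distal GS4T cells against 1.96 and 19.4 (4.40 ± 1.00, adjusted p = 0.0293), and Cdx1 212 and 527 against 30.3 and 66.8 (2.86 ± 0.56, adjusted p = 0.0189). Cdx2 was 89.5 and 295 there against 0 and 19.4, where 1 control library is at 0 and the size of a log2 difference depends on the pseudocount.

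Each library's level was then given as a percentage of the mean of the 4 GWTM2 goblet cell libraries, for each member and for the 9 epithelial markers summed. Over the 12 Gli1+ libraries the markers ran from 0.221% to 19.4%. Cdx2 stood at a median of 0.642 times the marker percentage of its own library, Cdx1 at 0.512, Foxa1 at 0.408, Foxa2 at 0.281, Foxa3 at 0.242, Spdef at 0.194 and Atoh1 at 0.0852. Creb3l1 stood at a median of 3.17 times and Klf4 at 9.59 times. Klf4 was at 89.2% to 132% of the goblet cell level in the 4 GWTT libraries and at 32.4% to 62.0% in the 4 GS4T libraries, without overlap, while the epithelial markers were higher in each GS4T library than in any GWTT library. Creb3l1 was at 6.32% to 20.3% in GWTT and at 24.9% to 32.0% in GS4T libraries. The epithelial markers were at 0.221% to 6.21% and at 8.25% to 19.4% in the same libraries. What part epithelial RNA has in Creb3l1 and in the other members was not tested. On the Notch side, of 9 genes tested, 1 rose and 1 fell in proximal GS4T cells, 1 rose and 2 fell in distal ones, and 2 rose and 3 fell over both segments. Hes1 fell by -1.11 ± 0.13 and -1.58 ± 0.21 (adjusted p = 0.011 and 0.00657), and Hey1 in the distal colon by -1.10 ± 0.26 (adjusted p = 0.034). The ligand gene Dll1 rose in the proximal colon by 2.08 ± 0.22 (adjusted p = 0.0091), Notch1 in the distal colon by 0.56 ± 0.12 (adjusted p = 0.0266), and Lfng, which modifies Notch receptors, over both segments by 0.82 ± 0.20 (adjusted p = 0.0133).

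**Figure D4:**
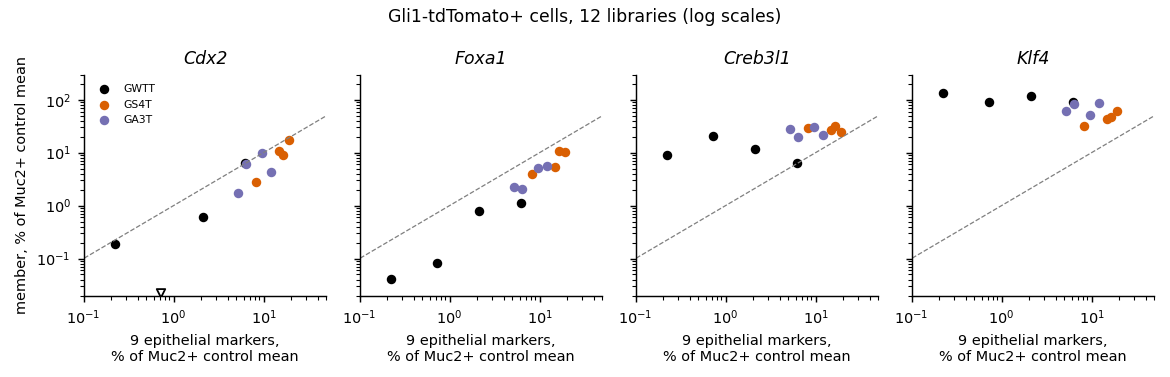
Level of 4 members in the 12 Gli1+ libraries, as a percentage of the Muc2+ control mean, against the summed level of 9 epithelial markers on the same scale, both axes log; the dashed line marks equal percentages and the open triangle a library at 0. Cdx2 and Foxa1 lie at or under the line, Creb3l1 on or above it, and Klf4 above it in all 12 libraries, at 89.2% to 132% in GWTT and 32.4% to 62.0% in GS4T libraries.

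Organoids hold epithelium alone, and they were used to ask what IL-1 and IL-17A do to it directly. After 12 h no member differed from control. Limma, edgeR and DESeq2 each called 0 members for IL-1 and for IL-17A (0 at an unadjusted p under 0.05 as well, where 4.38% and 5.14% of genes passed), against 0.0542% and 0.0385% of genes. Groups overlapped in all 10 members for both cytokines, and failed to overlap in 9.53% and 10.9% of genes. Log2 differences lay between -0.40 and 0.23, with Cdx2 at the lower end (-0.39 ± 0.40 and -0.40 ± 0.41), where 1 control library, Control-12h replicate 2, held 5703 normalized counts against 2691 and 1801 in the other two.

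At 72 h Klf4 was higher and Foxa2 and Foxa3 were lower with IL-1 than in controls, while 38.4% of 13023 genes passed limma. Of these 3 controls 2 hold the reads of 12 h controls, and their true time is not known. The other, Control-72h replicate 2, lay close to Control-12h replicate 4 (chi-square per degree of freedom 3.30). Time in culture and cytokine therefore cannot be told apart at 72 h, with either cytokine. Klf4 was 4533, 9280 and 7997 normalized counts with IL-1 and 3327, 2831 and 2999 in controls, a log2 difference of 1.19 ± 0.26 (adjusted p = 0.0109). Every treated library lay above every control, and groups failed to overlap in 6 members and in 54.7% of genes. Foxa2 was 288.9, 376.7 and 168.9 against 613.8, 654.5 and 623.3 (-1.25 ± 0.29, adjusted p = 0.0129), and Foxa3, its close relative, 510.4, 524.1 and 404.8 against 853.3, 712.6 and 686 (-0.65 ± 0.18, adjusted p = 0.0229). Neither gene overlapped its controls. The call for Foxa3 was lost without any one of the 3 controls or IL1-72h replicate 3 (adjusted p = 0.0533 to 0.0717), and with Control-72h replicates 2 and 4 averaged into 1 library (0.0655).

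The other members with IL-1 at 72 h did not pass, and 6 of the 7 had a negative log2 difference. At an unadjusted p 6 of 10 members passed, as did 49.4% of genes. Spdef was 421.4, 1058 and 663.6 against 1097, 1228 and 1191 (-0.81 ± 0.30, adjusted p = 0.0672), below control without overlap. Foxa1 (-0.38 ± 0.15) and Creb3l1 (-0.48 ± 0.17) also lay below all controls (adjusted p = 0.0744 and 0.0618), and Creb3l1 passed without Control-72h replicate 1 (-0.59, adjusted p = 0.0416). Atoh1 was 133.6, 554 and 365.3 against 599.6, 522.1 and 535.1 (-0.87 ± 0.46, adjusted p = 0.168), and Gfi1 25.28, 74.73 and 53.75 against 65.64, 112.4 and 105.1 (-0.96 ± 0.45, adjusted p = 0.126), both with IL1-72h replicate 2 among the controls. Without that replicate Atoh1 was at -1.31 (adjusted p = 0.044) and Spdef at -1.15 (adjusted p = 0.01). Cdx1 had a log2 difference of -0.12 ± 0.16 (adjusted p = 0.596), and Cdx2 was 2977, 4206 and 3409 against 5406, 1645 and 1728. The single high control, Control-72h replicate 1, holds the same reads as Control-12h replicate 2, the high Cdx2 control at 12 h. Without it Cdx2 was higher with IL-1 by 1.05 (adjusted p = 0.0095).

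Foxa2 was lower after 72 h of IL-17A as well, at 334.9, 317.1 and 194 normalized counts against 612.5, 650.8 and 622, a log2 difference of -1.19 ± 0.25 (adjusted p = 0.0421), the only member called where 10.8% of 13073 genes were. Groups failed to overlap in 3 members (Klf4, Foxa2 and Creb3l1) and in 45.3% of genes. That call was lost without any one of 5 of the 6 libraries, IL17A-72h replicate 2 being the exception (adjusted p = 0.0548 to 0.17), and with Control-72h replicates 2 and 4 averaged (0.164). IL17A-72h replicate 2 stood apart from its group, with 2259 Spdef counts against 361.7 and 613.5, 611.6 Atoh1 counts against 98.56 and 356.5, and 7024 Cdx2 counts against 3147 and 2998. Without it 7 members and 41.2% of genes were called, with log2 differences of -1.31 for Spdef, -1.54 for Atoh1, -1.42 for Gfi1, -0.66 for Foxa3, -0.65 for Creb3l1 and 0.90 for Klf4 (adjusted p = 0.00882 to 0.0498), beside Foxa2.

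These values shift with the scaling. Scaling by CPM moved the median of all genes by -0.29 for IL-1 and by -0.28 for IL-17A at 72 h, relative to the deposited normalization. On that scale 6 members (Spdef, Foxa1 and Creb3l1 besides the 3 above) and 42.1% of genes were called for IL-1, and 0 members and 2.1% of genes for IL-17A. Klf4 was then higher with IL-1 by 0.89 (adjusted p = 0.0377). Another alternative chosen after seeing the data entered each of the 4 distinct control libraries once, which also sets the values in CPM, so the controls and the scaling changed together and their parts cannot be told apart. It called 6 members and 46.2% of genes for IL-1, and 2 members (Foxa2 and Creb3l1) and 29.1% of genes for IL-17A. The 6 for IL-1 were Spdef, Foxa1, Foxa2, Foxa3, Creb3l1 and Cdx1 (-0.42, adjusted p = 0.0457, against 0.0868 in CPM with the same controls as before), and Klf4 missed its call (0.70, adjusted p = 0.0844).

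Time was followed without controls as well, as IL-1 libraries at 72 h against 12 h in CPM, also chosen after seeing the data. Of 13166 genes 33.7% passed, and 5 members did, all lower at 72 h: Foxa2 (-1.47 ± 0.33, adjusted p = 0.0124), Foxa3 (-1.01 ± 0.23, adjusted p = 0.0126), Creb3l1 (-0.80 ± 0.19, adjusted p = 0.0145), Foxa1 (-0.63 ± 0.17, adjusted p = 0.0244) and Spdef (-1.10 ± 0.34, adjusted p = 0.0349). The median of all genes in this comparison was -0.24, on the same scale. Foxa2 was at 47.1, 35.0 and 38.5 CPM at 12 h and at 15.0, 22.4 and 8.76 at 72 h, without overlap. The calls for Foxa1 and Spdef were also lost in edgeR and DESeq2, for Foxa1 without IL1-12h replicate 3 or 4 or IL1-72h replicate 3 (adjusted p = 0.0701 to 0.104), and for Spdef without any one library except IL1-72h replicate 2 (adjusted p = 0.0655 to 0.104). For IL-17A limma called 0 members (3 at an unadjusted p, where 32.2% of genes passed, 0 by edgeR, 2 by DESeq2), against 0.00757% of genes, and 7 members and 38% of genes without IL17A-72h replicate 2. A difference of the cytokine effect between times, tested as an interaction, was called for 0 members with either cytokine (5 and 2 at an unadjusted p, where 39.7% and 28.3% of genes passed, 0 and 0 by edgeR, 2 and 0 by DESeq2), against 25.5% and 0.0384% of genes. For IL-1 it was -1.06 ± 0.37 for Foxa2 (adjusted p = 0.058), 1.19 ± 0.43 for Klf4 (0.0643) and -0.97 ± 0.36 for Spdef (0.0666). In these interaction fits the reads of Control-12h replicates 2 and 4 entered again as Control-72h replicates 1 and 4. The p-values therefore do not rest on distinct libraries. Without IL1-72h replicate 2 Foxa2 (-1.32) and Spdef (-1.31) passed (adjusted p = 0.0157 and 0.00412). Klf4 passed without Control-12h replicate 4, IL1-12h replicate 1 or IL1-72h replicate 1 (adjusted p = 0.0202 to 0.0488). When Control-12h replicate 4 was left out, the same reads stayed in as Control-72h replicate 4. For IL-17A 5 members (adjusted p = 0.00321 to 0.0498) and 31.7% of genes passed without IL17A-72h replicate 2.

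The cytokines were not told apart by any member at either time in limma, edgeR or DESeq2, against 0% of genes called by limma. At an unadjusted p 0 members passed, where 1.4% of genes did at 12 h and 0.304% at 72 h. At 72 h the log2 difference between IL-1 and IL-17A was 0.53 ± 0.35 for Klf4 and between -0.27 and 0.09 for the other 9. IL-1 and IL-17A libraries of the same number deviated together, with correlations of 0.56 to 0.86 at 12 h and 0.51 to 0.76 at 72 h. At 12 h controls and cytokine libraries of the same number did so as well (0.61 to 0.64). At 72 h replicate 2 was marked female with IL-1 and male with IL-17A, so that number does not join cultures of 1 mouse. With the number as a block Klf4 was lower with IL-1 than with IL-17A at 12 h (-0.19, adjusted p = 0.0011), and no other member was called at either time.

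Against the same controls, all 4 markers of stem and dividing cells were lower with IL-1 at 72 h (median -2.88, with Lgr5 at -4.39 and Mki67 at -2.98). Of 7 colonocyte markers 5 were higher (median 1.78, with Aqp8 at 4.11). Here too cytokine and time in culture cannot be told apart. Of 9 tested genes on the Notch side 4 fell, among them Lfng (-2.39), Notch1 (-1.22) and the ligand gene Dll1 (-1.19), and 0 rose. Among other intestinal transcription factors 4 of 26 rose, with Prdm1 at 2.87, and 5 fell, with the stem cell factors Ascl2 (-2.38) and Sox9 (-2.21). Among goblet cell products Retnlb (-4.88) and Galnt12 (-0.81) fell and Muc13 (2.03) rose, of 12 tested. The summed goblet cell markers ran from 2427 to 10750 CPM with IL-1 at 72 h and from 7050 to 7801 in controls.

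**Figure D5:**
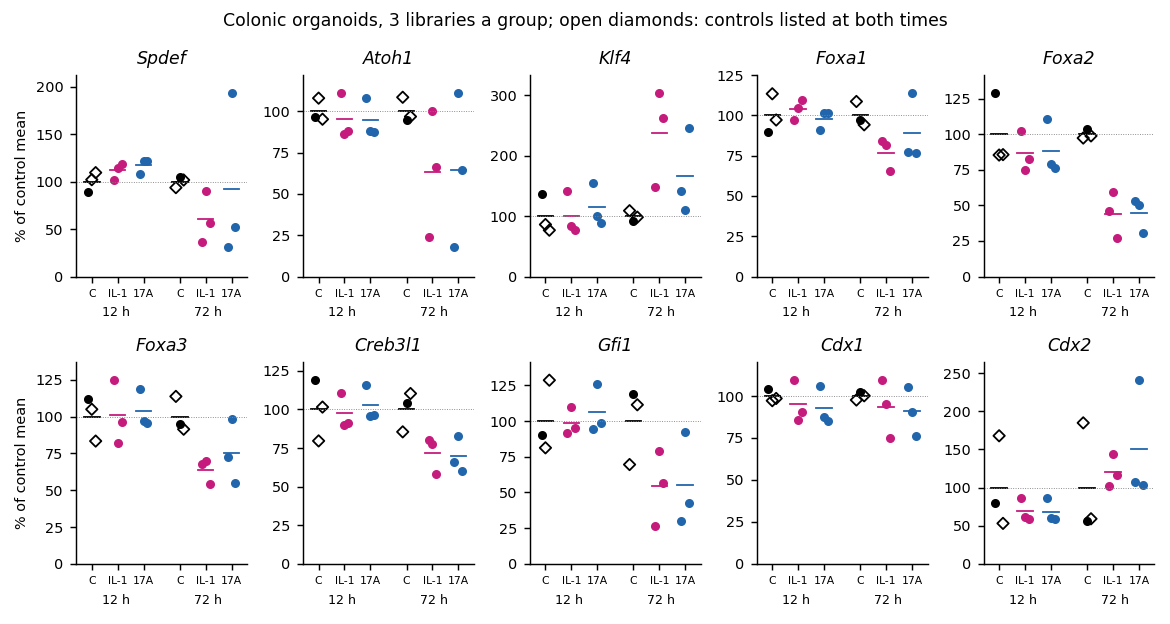
Normalized counts of each member in organoids as a percentage of the control mean of its own table, 3 libraries a group, with a line at each group mean; open diamonds are the 2 control libraries listed at both times, C is control and 17A is IL-17A. At 72 h Klf4 lies above and Foxa2 below the controls in all 3 IL-1 libraries, and 1 IL-17A library stands apart in Spdef (193%) and Cdx2 (241%).

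Across the 18 group means the genes most like each member were sought among 12172 genes by Pearson's r of log2(CPM + 0.1), which is a description over groups that differ mostly by cell source. Spdef and Atoh1 shared Galnt12, an enzyme gene of mucin glycosylation, among their nearest genes (r = 0.994 for both), and Atoh1 was nearest to Tpsg1 (0.995). Foxa3 was next to Golm1 (0.995) and to Ern2 (0.994), a stress sensor of mucin-producing cells, and Foxa2 to Myb (0.993) and to Foxa3 (0.990). Gfi1 was nearest to Rab3d (0.976) and Kit (0.975), and Cdx2 to Mgat4c (0.983). Cdx1 had Klf5, an epithelial transcription factor gene, among its nearest genes (0.997). Foxa1 was nearest to Sh3bgrl2 (0.997) and Creb3l1 to Mcoln2 (0.983). Klf4 had the lowest nearest value, 0.891 with Atf3, a factor induced early in stress.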

How the data were processed

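RNA-seq of 42 libraries in 18 groups was analysed from 12 tables, each of 1 knockout or cytokine group with its controls. Per the labels and the study's methods, reads were mapped uniquely to mm10 with STAR 2.5.3, and the authors deposited counts normalized with DESeq2 1.28.1, a signal on a linear scale. The tool, annotation and strand setting used to count reads are not given in the sources used here. Dividing each column by its smallest step gave whole reads for 100% of values within 0.1, and depths are sums of those reads over named genes. Rows with no gene name, 4 in each GS4M2 table and up to 28.2% of a library's values, were left out.

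Within a table, log2(normalized count + 1) of genes with a mean of at least 10 was compared with limma 3.58.1 (trend, R 4.3.3), with Benjamini-Hochberg adjustment over all genes tested and a call at an adjusted p under 0.05. Comparisons across tables used log2(CPM + 0.1) and a mean of at least 0.5 CPM. All limma p-values are two-sided. Errors of log2 differences are standard errors. edgeR 4.0.16 (quasi-likelihood) and DESeq2 1.42.0 were run on the recovered reads as alternatives. The scripts were tested on simulated data. CPM of levels and percentages were taken over the 12186 genes of all tables, and those of fits and marker sums over the genes of their own tables. Positions are from GENCODE M21 on GRCm38.

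The members were given by name. Named genes beyond them were, of each list, at most the 3 called genes with the largest changes, and the 3 nearest genes of each member. One of these genes is not reported here. The members and lists were chosen with earlier results of these data known. Replicate numbers were used as pairs between the segments of 1 genotype (correlations of 0.24 to 0.55 in Muc2+ and 0.20 to 0.39 in Gli1+ cells). They were also used as pairs between IL-1 and IL-17A libraries. The labels do not give either pairing, and the sex marks differed within GWTT replicate 1 and within cytokine replicate 2 at 72 h. Alternatives were other scalings, pseudocounts, filters and tools, a replicate block, and leaving out each library. With 2 or 3 libraries a group, their number limits the precision.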

Additional observations from a re-analysis of the deposited data

How the results depend on the processing

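No called value of a member changed its sign in any alternative run. Of 385 alternatives of the 31 called member values 101 lost the call, and of 4145 alternatives of uncalled values 123 gained one. The causes were not tested. Numbers of members called that moved by over 1.5 times follow. With DESeq2 they were 1 in proximal and 2 in distal GS4M2 cells, 1 in distal GA3M2 cells, 1 over both segments of GS4M2 and 2 of GA3M2, 4 in proximal GS4T, 1 in proximal and 2 in distal GA3T cells, 6 over both segments of GA3T, 3 between segments in GWTM2, 5 in all Muc2+ and 1 in GWTT cells, 2 for the IL-1 time interaction and 2 for IL-17A at 72 h against 12 h. With edgeR 3 were called in distal GS4T cells. In proximal GS4T cells 4 were called with the higher pseudocount and 1 with the stricter filter. Scaling by CPM gave 6 for IL-1 and 0 for IL-17A at 72 h and 4 for the IL-1 time interaction. Entering each distinct control once, which also changed the scaling to CPM, gave 6 and 2 at 72 h. Averaging near-identical libraries, also chosen after seeing the data, gave 0 for IL-17A at 72 h and 3 for IL-1 at 72 h against 12 h.

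With the replicate block the numbers were 1 in proximal GS4M2, 2 over both segments of GA3M2, 5 in proximal GS4T cells, 3 between segments in GWTM2, 5 in all Muc2+ and 1 in GWTT cells, 0 for IL-1 and 0 for IL-17A at 72 h, 1 for IL-1 against IL-17A at 12 h and 6 for IL-17A at 72 h against 12 h. The labels do not give a pairing of segments, or of the cytokines, by number. In comparisons with controls the block joins a knockout or cytokine library to the control of the same number, a pairing also not given. Under it Klf4 (1.08, adjusted p = 0.0818), Foxa2 (-0.94, adjusted p = 0.0732) and Foxa3 (-0.59, adjusted p = 0.183) lost their calls for IL-1 at 72 h, Foxa2 for IL-17A at 72 h (-0.95, adjusted p = 0.22) and Creb3l1 over both segments of GA3T (1.20, adjusted p = 0.0691), while Gfi1 (-0.87, adjusted p = 0.0456) and Spdef (0.68, adjusted p = 0.0127) gained one over both segments of GA3M2.

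Leaving out 1 library at a time gave 0 to 1 members called in distal GA3M2 cells, over both segments of GS4M2 and of GA3M2, in proximal GA3T cells and between distal GS4M2 and GA3M2 cells. It gave 0 to 4 between proximal GS4M2 and GA3M2 cells and over both segments of GA3T, 0 to 7 in proximal and 2 to 3 in distal GS4T cells, 6 to 9 over both segments of GS4T, and 2 to 6 between segments in all Muc2+ cells. For IL-1 it gave 2 to 5 at 72 h, 3 to 7 at 72 h against 12 h and 0 to 2 for the time interaction. For IL-17A it gave 0 to 7, 0 to 7 and 0 to 5. All other comparisons gave 0 to 0.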
